A study of Mus musculus with 3 samples.

Results

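The 10 genes described here mark the endothelium, the cell layer that lines blood vessels, in mouse kidney: Ehd3, Plvap, Emcn, Kdr, Flt1, Pecam1, Cdh5, Tek, Cd34 and Egfl7. Their members on the array are the 18 probe sets, of 45037 that are not controls, whose only platform gene symbol is one of these names. All 10 genes were found, 6 with 1 probe set and 4 with more, and all 18 probe sets passed the filter on low values. Kidney RNA of 3 C57BL/6 mice was profiled on single-colour Affymetrix arrays, 1 array per mouse. The control group is 1 array labelled with the agent control. The acetate group is 2 arrays of mice that drank water with 200 mM acetate, a product of gut fermentation. Feeding began at 3 weeks of age and lasted 6 weeks. These animals are called mouse 1 and mouse 2 here. The labels give no transgene, sex or vehicle, and the mice were conventionally housed. The labels do not say whether the control received another salt. The comparison asks how kidney gene expression differs after acetate feeding. All levels are deposited log2 values, on which a difference of 1 is a doubling, and the acetate-fed mean is given ± SD (n = 2). A single control array carries no spread, so each difference also holds whatever was particular to that 1 kidney.

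Kidney endothelium is not uniform. Glomerular capillaries, where blood is filtered, have open fenestrae, whereas peritubular capillaries and ascending vasa recta have fenestrae closed by a diaphragm. Endothelial cells depend on vascular endothelial growth factor (VEGF), which podocytes and tubules release and which binds the receptors encoded by Kdr and Flt1. The angiopoietins, which bind the receptor encoded by Tek, keep vessels quiescent or destabilise them. The genes were therefore described in 2 classes of 5. The glomerular and fenestrated capillary class holds Ehd3, Plvap, Emcn, Kdr and Flt1, and the general endothelial class holds Pecam1, Cdh5, Tek, Cd34 and Egfl7. The division is one of emphasis, since Kdr, Flt1 and Emcn are made by other endothelium too.

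The promoters of 3 genes are shown, each lying wholly outside the gene spans of the RefSeq table. Of these genes, Cd34 and Egfl7 were higher in both acetate-fed kidneys, and Ehd3 differed in direction between the mice. Each line is the 250 bases before a start in the RefSeq table (GRCm38.p6), written 5′ to 3′ on the gene's strand. Capitals mark GGAA on either strand, the core that ETS-family factors such as Erg bind in endothelial genes.
Cd34, chr1:194938571-194938820, plus strand: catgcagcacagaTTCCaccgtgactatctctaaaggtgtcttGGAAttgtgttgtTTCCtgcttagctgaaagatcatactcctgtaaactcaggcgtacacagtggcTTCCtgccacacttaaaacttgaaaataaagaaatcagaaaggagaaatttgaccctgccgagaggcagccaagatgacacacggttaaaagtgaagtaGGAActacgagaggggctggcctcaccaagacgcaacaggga
Egfl7, chr2:26580833-26581082, plus strand: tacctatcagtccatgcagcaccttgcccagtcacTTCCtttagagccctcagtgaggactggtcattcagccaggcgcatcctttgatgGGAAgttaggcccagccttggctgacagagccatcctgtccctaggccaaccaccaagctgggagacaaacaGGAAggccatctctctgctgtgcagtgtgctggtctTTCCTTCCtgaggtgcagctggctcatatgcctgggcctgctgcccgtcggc
Ehd3, chr17:73804591-73804840, plus strand: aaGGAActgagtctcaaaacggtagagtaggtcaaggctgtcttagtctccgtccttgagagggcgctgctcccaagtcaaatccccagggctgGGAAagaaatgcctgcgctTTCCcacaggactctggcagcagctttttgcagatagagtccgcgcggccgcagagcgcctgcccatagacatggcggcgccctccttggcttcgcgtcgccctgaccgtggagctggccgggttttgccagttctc
In these windows GGAA or its complement TTCC occurred 5 times for Cd34, 5 times for Egfl7 and 3 times for Ehd3. Such a core is common: 93.4% of 32851 promoter windows of the same length hold at least 1, with a median of 3. The longer AGGAAG, each match of which contains a GGAA, occurred 3 times for Egfl7, 1 time for Cd34 and 0 times for Ehd3, and 29.5% of all windows hold it. Windows were matched for 7 of the 10 genes, 9 windows in all, and 3 of those belong to Egfl7; Plvap, Cdh5 and Pecam1 had no entry. The 3 windows shown lie wholly outside the RefSeq gene spans. The other 6, among them those of Kdr and Flt1, belong to starts that fall within the span of their own gene, and are not shown. In these, AGGAAG occurred 2 times each for Flt1 and Emcn, 0 times for Kdr and Tek, and 1 and 0 times in the other Egfl7 windows. A match is a description of these letters only.

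Of the 10 genes, 9 were higher than the control in both acetate-fed kidneys (7 after median centring, which put Kdr and Flt1 below the control in mouse 1) and none was lower in both, judged by the probe set of each gene with the highest mean. Among all 13473 tested genes, 26% exceeded the control in both mice and 30.9% lay below it in both. A difference of at least 0.32 in both mice was reached by 5 of the 10: Pecam1, Cdh5, Cd34, Egfl7 and Plvap. The background for that size was 4.97% of tested genes higher and 5.24% lower. Over the 10 genes the median lay 0.25 above the control in mouse 1 and 0.28 above it in mouse 2, against 0.00 in each mouse over all tested genes. Both differences share the control array, so their accord is not independent. In whole tissue, more endothelial cells and more RNA per endothelial cell cannot be told apart.

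**Figure D1:**
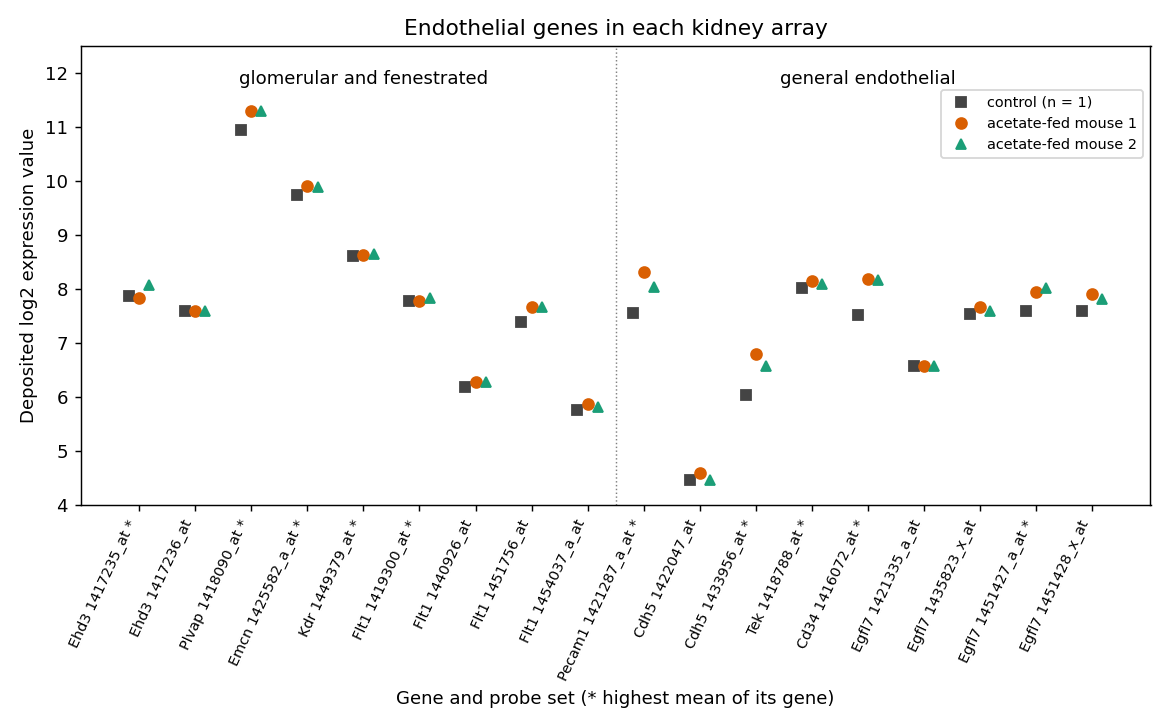
Deposited log2 value (vertical axis) of each of the 18 endothelial probe sets in the control array (square) and in acetate-fed mouse 1 (circle) and mouse 2 (triangle); each point is 1 array and an asterisk marks the probe set with the highest mean of its gene. The Pecam1, Cd34 and first-ranked Cdh5 points of both acetate-fed mice stand apart above the control square, while the 3 Kdr points nearly coincide between 8.61 and 8.64.

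Limma, fitted across all 27022 tested probe sets with Benjamini-Hochberg adjustment, called 4 of the 18 endothelial probe sets higher (22.2%) and 0 lower; 5.18% of all tested probe sets were called higher and 5.35% lower. The 4 were the Cd34 and Plvap probe sets and 2 of the 4 for Flt1. In both of the called Flt1 probe sets the acetate-fed pair was exactly tied, as it was at 92.3% of all calls against 33.7% of tested probe sets. At an unadjusted p under 0.05 there were 6 endothelial probe sets, against 20% of all tested. After quantile normalization or median centring, or in the upper 40% of probe sets, limma called 0 of the endothelial probe sets and 0 in the whole table. At an unadjusted p under 0.05, limma then gave 7 of 18, 7 of 18 and 6 of 17 endothelial probe sets, against 15.9%, 18.4% and 19.5% of all tested.

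Ehd3 encodes an endocytic recycling protein that in mouse kidney is largely a marker of glomerular endothelium. Its level was 7.87 on the control array, 7.83 in mouse 1 and 8.08 in mouse 2, so the 2 acetate-fed kidneys lay on either side of the control. The mean of 7.96 ± 0.18 did not differ from the control by limma (adjusted p = 0.987). The other Ehd3 probe set read 7.60 on each of the 3 arrays. Neither Ehd3 probe set gives a direction that both mice share.

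Plvap encodes the protein that builds the diaphragms of fenestrae, found on peritubular capillaries and ascending vasa recta and mostly lacking in mature glomerular capillaries. Its level was 10.95 on the control array, 11.29 in mouse 1 and 11.30 in mouse 2. Both acetate-fed kidneys were higher by nearly the same amount, 1.26-fold and 1.27-fold. Plvap rose by 0.34 ± 0.01 (limma SE; adjusted p = 0.043), and its adjusted p ranged from 0.032 to 0.246 over 7 other fits, 3 of which called it. The gap between the mice, 0.01, is far smaller than the difference, but the call rests on that small gap. Limma gave Plvap an adjusted p of 0.061 once probe sets with a tied pair were dropped.

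Emcn encodes endomucin, a sialoglycoprotein of capillary and venous endothelium. It read 9.74 on the control array, 9.91 in mouse 1 and 9.89 in mouse 2. Both acetate-fed values were above the control by 1.12-fold and 1.11-fold, and limma did not call the difference (adjusted p = 0.155, and from 0.149 to 0.567 over 7 other fits).

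Kdr encodes VEGF receptor 2, the main signalling receptor of endothelial cells. Its level was 8.61 on the control array, 8.63 in mouse 1 and 8.64 in mouse 2. The differences, 0.02 and 0.03, are the smallest of any single-probe-set gene among the 10, and after centring each array on its median the mean difference was 0.00 (adjusted p = 0.671 by limma as deposited).

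Flt1 encodes VEGF receptor 1, which binds VEGF without strong signalling, exists in membrane and soluble forms, and is also made by monocytes. Its probe set with the highest mean read 7.77 on the control array, 7.78 in mouse 1 and 7.83 in mouse 2 (adjusted p = 0.871 by limma). That is a difference of 0.01 and 0.06, and its sign in mouse 1 turned with median centring. A second Flt1 probe set read 7.39 in the control and 7.66 in both acetate-fed kidneys, a 1.21-fold increase (limma adjusted p = 0.014, and from 0.004 to 0.246 over 6 other fits). Another read 6.18 in the control and 6.27 in both (limma adjusted p = 0.021, and from 0.006 to 0.731 over 6 other fits), and the last read 5.75, 5.87 and 5.82. All 4 Flt1 probe sets were higher in both mice as deposited, but the sizes ran from a mean of 0.03 to 0.27. Which transcript form each probe set reads was not determined.

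Pecam1 encodes CD31, an adhesion molecule of endothelial junctions that leukocytes and platelets also carry. It read 7.55 on the control array, 8.31 in mouse 1 and 8.03 in mouse 2. Both acetate-fed kidneys were higher, 1.69-fold and 1.40-fold, and the gap between them was 0.27. Limma did not call the mean difference of 0.62 ± 0.20 (SE; adjusted p = 0.476). With tied pairs dropped it was called (limma adjusted p = 0.004, the lowest over 7 other fits, where it ranged up to 0.563), as were 6.55% of all probe sets as higher in that fit.

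Cdh5 encodes VE-cadherin, the adherens junction protein that is among the most restricted endothelial genes. Its higher probe set read 6.03 on the control array, 6.79 in mouse 1 and 6.58 in mouse 2. The acetate-fed kidneys were 1.69-fold and 1.47-fold higher, which limma did not call (adjusted p = 0.372). Again the fit without tied pairs called it (adjusted p = 0.005; the range over 7 other fits was 0.005 to 0.430). That fit borrows most of its spread from the whole table: 26.5 prior degrees of freedom, and 1 from the mice. The other Cdh5 probe set is near the filter limit of 4.21 and read 4.46, 4.59 and 4.46, so mouse 2 equalled the control there.

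Tek encodes the angiopoietin receptor Tie2. It read 8.02 on the control array, 8.14 in mouse 1 and 8.10 in mouse 2. Both acetate-fed kidneys were slightly above the control, 1.08-fold and 1.06-fold, without a limma call (adjusted p = 0.431).

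Cd34 encodes a sialomucin of capillary endothelium that haematopoietic progenitors and some fibroblasts also carry. It read 7.51 on the control array, 8.19 in mouse 1 and 8.17 in mouse 2. The acetate-fed pair was nearly equal and well above the control: Cd34 rose by 0.67 ± 0.02 (limma SE), which is 1.59-fold (adjusted p = 0.045). Of the 7 other fits 4 called it, with adjusted p from 0.001 to 0.240, and the fit without tied pairs was among the 4. Of the others called as deposited, Plvap was not called without tied pairs (limma adjusted p = 0.061). Both called Flt1 probe sets were tied, so that fit could not test them.

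Egfl7 encodes a secreted protein that endothelial cells lay down in their matrix. Its highest probe set read 7.59 on the control array, 7.95 in mouse 1 and 8.01 in mouse 2, 1.28-fold and 1.34-fold higher (limma adjusted p = 0.195). The other 3 probe sets gave smaller differences. One read 7.60, 7.90 and 7.82, another 7.53, 7.67 and 7.60, and the last stayed at 6.58 on each array. All 4 are of the x or a types, of which the x type can bind related transcripts. Because the probe sets differ in size, the size for Egfl7 is uncertain.

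Set side by side, the general endothelial class stood further above the control than the capillary class. Medians for mouse 1 and mouse 2 were 0.68 and 0.48 in the general class, and 0.02 and 0.15 in the capillary class. The medians of the classes therefore differed by 0.67 in mouse 1 and 0.33 in mouse 2. By the probe set with the highest mean, 4 of the 5 general genes exceeded all 5 capillary genes in each mouse, and Tek lay among the capillary genes. The other Cdh5 and Egfl7 probe sets all lay below the 0.34 of Plvap in both mice, so that count rests on the probe set used. The difference between the classes is a description and was not tested: genes are not replicates, and the classes were chosen with earlier results of these arrays known. It was 0.50 averaged over the mice, 0.26 when each gene was the median of its probe sets, and 0.20 with Kdr and Flt1 counted as general genes, so its size rests on the choice of probe set and class. Within the capillary class, Plvap, the marker of diaphragmed fenestrae, had the largest difference in both mice, and the VEGF receptor genes had the smallest difference in mouse 2.

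**Figure D2:**
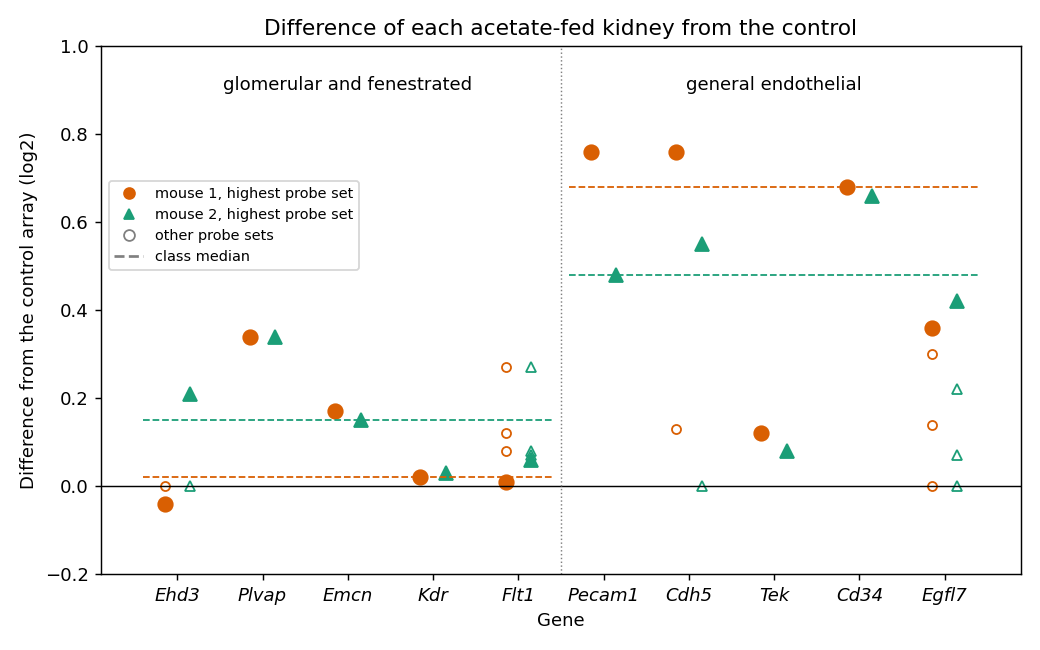
Difference of each acetate-fed kidney from the 1 control array (log2, vertical axis) for the 10 genes; filled symbols are the probe set with the highest mean, open symbols the other probe sets of that gene (circle mouse 1, triangle mouse 2), and dashed lines the class medians. The general genes other than Tek lie between 0.36 and 0.76, above the capillary genes, which reach at most 0.34, while open symbols for Cdh5 and Egfl7 fall to 0.00.

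Other general endothelial genes showed differences in the same direction. Of 18 tested, 16 exceeded the control in both mice and 1, the tight junction gene Cldn5, was lower in both by 0.01; 9 of the 18 were higher by at least 0.32 in both. Their medians were 0.43 (mouse 1) and 0.31 (mouse 2). Cd93, a C-type lectin of endothelial cells and monocytes, read 7.85 on the control array, 8.78 in mouse 1 and 8.60 in mouse 2, and its other probe set 7.41, 8.41 and 8.24. Vwf, von Willebrand factor, read 4.03, 4.92 and 5.03, and Esam, an endothelial adhesion molecule, 8.84, 9.45 and 9.49. The Vwf control value lies below the filter limit of 4.21, so Vwf was tested, and counted above, only through its acetate-fed values. Ptprb encodes VE-PTP, the phosphatase that restrains Tie2, and read 8.33, 9.09 and 8.90 (8.06, 8.77 and 8.72 in its other probe set). Limma called 2 of the 18 higher and 0 lower, the ETS factor gene Erg (1.13-fold; adjusted p = 0.013) and the nitric oxide synthase gene Nos3 (1.06-fold; adjusted p = 0.028), against 3.97% of all tested genes called higher. Both pairs were exactly tied, and the other Erg probe set read 5.49, 5.49 and 5.78.

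Further genes often used for glomerular endothelium were mixed. Of 6 listed, 5 were tested, 2 lay above and 2 below the control in both mice, 0 were called by limma, and the medians were 0.11 and 0.00. Plat, tissue plasminogen activator, read 9.29, 9.81 and 9.67. Sema5a, a semaphorin, read 7.38, 7.73 and 7.39, and its other probe set 7.19, 7.41 and 7.36. Smad6, an inhibitor of BMP signalling, read 8.09, 7.89 and 7.92, and Pi16, which fibroblasts also make, 7.40, 6.97 and 6.91. Podocytes share the glomerulus: 5 of 7 tested podocyte genes exceeded the control in both mice and 0 were called, with medians of 0.27 and 0.08. The summed linear level of those 7 was 1.14 times the control in mouse 1 and 1.11 times in mouse 2, against 1.17 and 1.19 times for the 5 capillary genes and 1.41 and 1.33 times for the 5 general genes. Such sums weigh genes by their level. Plvap, mostly lacking in mature glomerular capillaries, was the highest capillary gene (10.95 on the control array). The highest podocyte genes were Cdkn1c, at 9.52 on each array, and Podxl (9.42, 9.69 and 9.71). The part of glomerular content in the results was not tested.

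The VEGF and angiopoietin pathway had 17 tested genes, of which 9 exceeded the control in both mice and 1 lay below it, with a median of 0.16 in each mouse. Limma called 1 higher, Nos3, and 1 lower, the adaptor gene Shb, which fell 1.09-fold (adjusted p = 0.049, acetate-fed pair tied). Over all tested genes, 3.97% were called higher and 4.92% lower. Other VEGF receptor genes were mixed. Flt4, VEGF receptor 3, read 5.78, 6.39 and 6.20 in its higher probe set and 5.07, 5.12 and 5.07 in the other. The co-receptor gene Nrp2 read 6.26, 6.96 and 6.68, while its relative Nrp1 read 9.24, 9.41 and 9.16, and all 4 Nrp1 probe sets lay below the control in mouse 2. Angpt2, the angiopoietin that antagonises Tie2, read 7.52, 7.92 and 7.81, while its other probe set stayed at 4.70 on each array. Nrp1, the ligand gene Vegfa and the Tek partner Tie1 are given for their role, outside the rule for naming. Vegfa read 8.26, 8.37 and 8.52 in one probe set and 8.26, 8.27 and 8.30 in the other, and Tie1 6.86, 7.19 and 7.21.

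**Figure D3:**
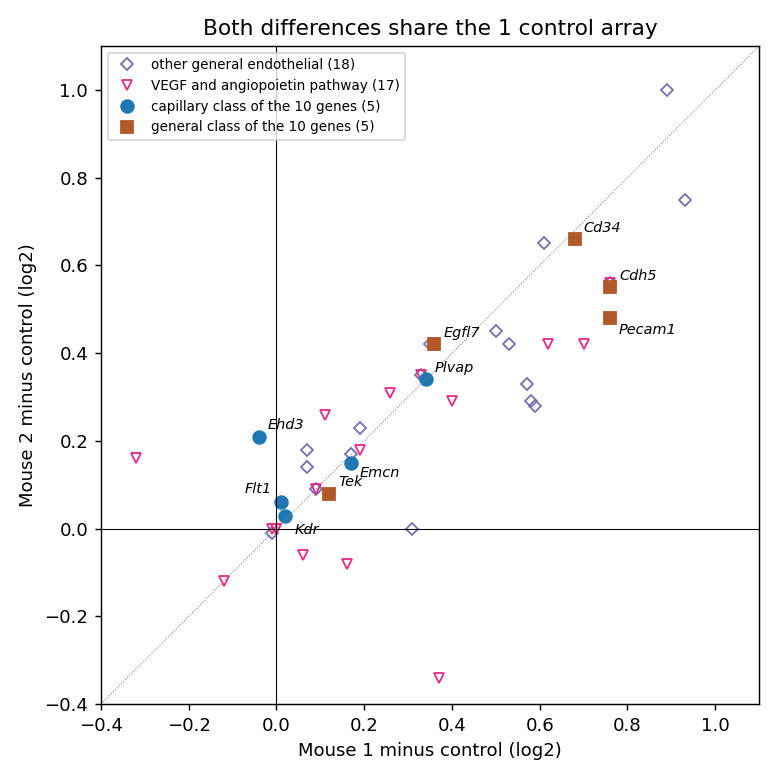
Difference from the control (log2) in mouse 1 (horizontal axis) and mouse 2 (vertical axis) for the 10 genes by class, the 18 other general endothelial genes and the 17 pathway genes; each point is 1 gene by its highest probe set, and the dotted line marks equal differences. Both axes share the control array, so points near the line do not count as independent accord; Cd34, Cdh5 and Pecam1 lie to the upper right and Kdr and Flt1 near the origin.

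Vessel-type genes were less uniform. Of 7 tested arterial genes, 5 were higher in both mice, with medians of 0.22 and 0.17. Sox17, an arterial transcription factor, read 6.32, 6.58 and 7.01, and the chemokine gene Cxcl12 rose 1.20-fold in its highest probe set (limma adjusted p = 0.030), although its other probe sets had mean differences of -0.02 and -0.06. Of 6 venous genes, 2 were higher in both, Aplnr (6.05, 7.57 and 6.91) and Vcam1 (6.81, 8.88 and 7.27), and the medians were 0.25 and 0.00. Of 7 lymphatic genes only 3 could be tested; Prox1, Lyve1 and Mmrn1 lay below the filter. Reln, by 1.02-fold, was the 1 lymphatic call (limma adjusted p = 0.029, acetate-fed pair tied), and Cxcl12 the 1 arterial call. The share called higher over all tested genes was 3.97%. Of 11 tested activation genes, 7 exceeded the control in both mice and 1 lay below it, with 0 limma calls. Their medians were 0.40 (mouse 1) and 0.04 (mouse 2). Edn1, endothelin-1, read 5.70, 6.78 and 6.48, and Thbd, thrombomodulin, 7.16, 8.15 and 7.88. The gene below the control in both was Esm1, a proteoglycan that endothelial cells secrete, which read 5.96, 5.85 and 5.36.

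Markers of other cells that can carry some of these transcripts moved alongside. All 10 macrophage genes were at least 0.32 higher in both mice, with medians of 1.96 and 1.02 and a summed linear level 3.78 times the control in mouse 1 and 2.05 times in mouse 2; limma called 0 of them. Of 8 fibroblast genes, 7 were higher in both (medians 1.03 and 0.48, summed level 3.03 and 1.41 times the control). Both lists were further above the control in mouse 1 than in mouse 2. In the general class all but Egfl7 had the same order, with 0.76 and 0.48 for Pecam1, 0.76 and 0.55 for Cdh5, 0.68 and 0.66 for Cd34 and 0.12 and 0.08 for Tek. Emcn of the capillary class had it too (0.17 and 0.15), whereas Ehd3, Kdr and Flt1 were higher in mouse 2. Plvap was nearly equal in the mice (11.29 and 11.30). The gap between the mice was only 0.02 for Cd34 and for Emcn. The other general endothelial genes went both ways, with 0.93 and 0.75 for Cd93 but 0.61 and 0.65 for Esam. The summed level of all 10 genes was 1.22 and 1.21 times the control, but the 5 capillary genes made up 3678 of its 4564 linear units on the control array. Mural genes, which mark pericytes and smooth muscle around vessels, exceeded the control in both mice at 4 of 9 and lay below it at 1 (medians 0.23 and 0.00). The pericyte gene Rgs5 read 8.37, 9.65 and 9.31. The mural gene below the control, Cspg4, read 7.05, 6.86 and 6.56, and its other probe set 6.28, 6.25 and 6.07. Of 3 tested platelet genes 0 were higher in both. Their part in the endothelial differences was not tested.

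Adipocyte genes set the control apart: all 5 tested were lower in both acetate-fed kidneys, with medians of -3.17 and -3.36 and a summed level 0.27 and 0.30 times the control. Adipoq, adiponectin, read 9.98 on the control array, 4.38 in mouse 1 and 3.87 in mouse 2. Limma called 1 of the 5, the adipogenin gene Adig (6.99, 3.96 and 3.91; adjusted p = 0.021), against 4.92% of all tested genes called lower. The Adig values of both acetate-fed mice lie below the filter limit of 4.21, so Adig was tested, and counted above, only through its control value. The same holds for Cidec (6.49, 3.32 and 3.12), whose differences are the list medians. The Adipoq value of mouse 2 also lies below that limit. Fabp4, made by adipocytes and by capillary endothelium, read 10.96, 9.81 and 9.98, the opposite direction to Cd34 and Cdh5. Fat has capillaries of its own, and the part of that tissue in the control's endothelial values was not tested. Of the epithelial genes that define kidney, all 7 passed the filter, and 4 lay above and 3 below the control in both mice, with 0 limma calls. The collecting duct water channel gene Aqp2 read 11.43, 11.93 and 12.55, and the thick limb transporter gene Slc12a1 11.84, 12.33 and 12.55. Kap, a proximal tubule gene, read 14.53, 14.39 and 13.92. Their summed level, 1.01 times the control in mouse 1 and 0.954 times in mouse 2, therefore holds members of both directions.

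**Figure D4:**
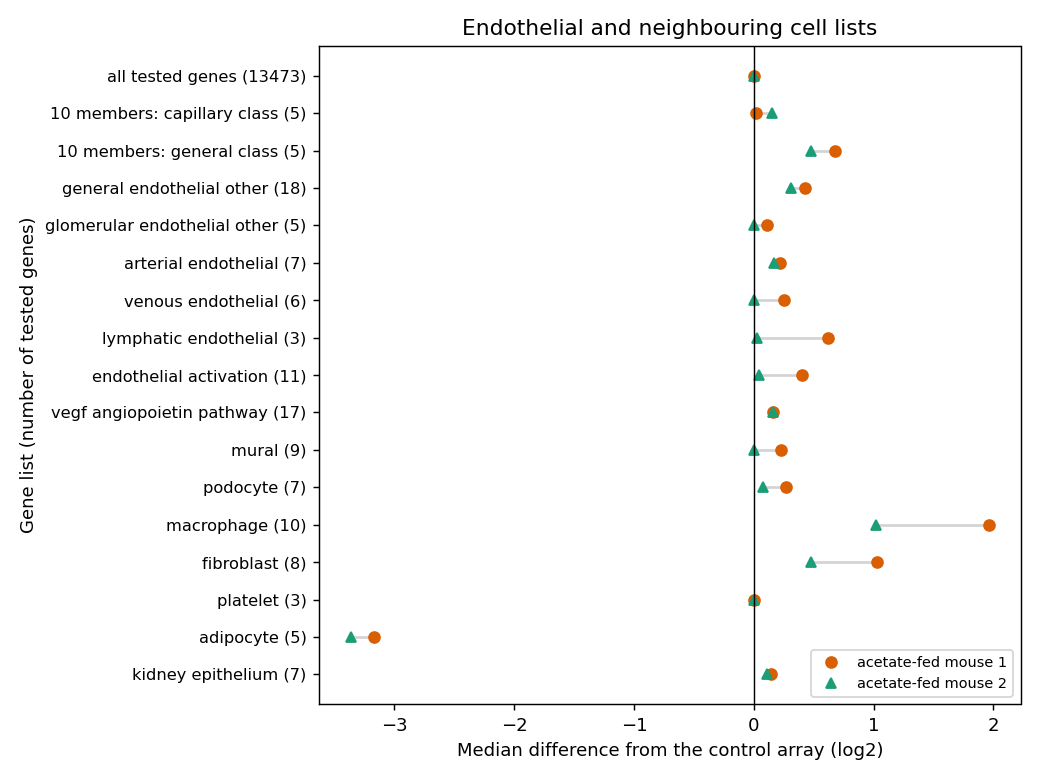
Median difference from the control array (log2, horizontal axis) over the tested genes of each list, with their number in brackets, in mouse 1 (circle) and mouse 2 (triangle). The endothelial lists lie between 0.00 and 0.68, macrophage genes at 1.96 and 1.02, and adipocyte genes below -3.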

How the data were processed

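RNA from 3 kidneys (1 control, 2 acetate-fed) was measured on 1 array each. The values deposited by the authors are on a log2 scale, with medians of 4.91, 4.94 and 4.93; the submitters' processing notes name MAS5, and how log2 values were summarised is not given in the sources used here. Exact ties are frequent: 30.0% of probe sets have 1 value on all 3 arrays, and 62.5% of control values are shared with another probe set. Small spreads between the acetate-fed arrays can come from such ties. No scanner file was used, so detection and saturation are unknown, and 3 arrays limit the precision. The labels do not name separate litters or hybridisation batches.

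Probe sets were named by the platform annotation: 34945 had 1 symbol, 932 several and 9160 none, and 34741 matched RefSeq by Entrez identifier. The upper 60% by mean (27022 probe sets, mean at least 4.21) were fitted with limma 3.58.1 (R 4.3.3; lmFit, eBayes with trend), acetate against control, at an adjusted p of 0.05. The fit has 1 residual degree of freedom, from the acetate-fed pair, whose spread also stands for the control. Each gene is represented by the probe set whose mean was highest. From each other list, up to 4 genes with the largest difference shared in sign by both mice, and any called, were eligible to be named; a few further values are given for their role. On simulated data of 27022 probe sets for acetate against control, limma recovered 169 to 183 of 200 changes of 1 and 200 of 200 changes of 2 (log2). False calls numbered 6 to 13 and 1 to 10. The simulated arrays had the same spread at every probe set and no ties, unlike the deposited values. These counts therefore do not give the recovery in the real table. Members and lists were chosen with earlier results of these data known. Tables used Python 3.11.15, pandas 2.3.3 and matplotlib 3.10.9.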

Additional observations from a re-analysis of the deposited data

How the results depend on the processing

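Of the 18 endothelial probe sets limma called 4 higher as deposited and 0 after quantile normalization, 0 after median centring and 0 in the upper 40% of probe sets. Where it called 0 of them, it called 0 in the whole table too. It called 4 with no filter, with a pseudocount of 16 and without a trend, and 3 (Cd34, Cdh5 and Pecam1) without tied pairs. Over all tested probe sets those fits called 14.5%, 10.5%, 11.5% and 11.5% in either direction, in the same order. The main fit called 10.5%. The number of genes higher in both mice, 9 of 10, was 7 with median centring, 6 of 7 without the a, s and x probe set types, and 9 to 10 with 1 acetate-fed mouse left out. The number at least 0.32 higher, 5, was 3 by the median over probe sets and 3 of 7 without those probe set types, and was 5 with either mouse left out. With 1 mouse left out, a gene had to pass in the other mouse only, so neither count could fall. The general minus capillary median, 0.50, was 0.26 by the median over probe sets, 0.20 with Kdr and Flt1 counted as general and 0.33 to 0.67 with 1 mouse left out. Chosen after seeing the data, leaving out Plvap gave 0.53, and taking the Flt1 probe set with the largest difference gave 0.39. Over the 5 alternatives that can change a gene's mean difference, 1 of 50 values was below 0 (Ehd3 without mouse 2, -0.04). Of 60 single-mouse differences under the 3 rescalings, 2 turned sign, Kdr (-0.015) and Flt1 (-0.026) in mouse 1 with median centring. With 1 array against 1 no test can be made. No paired analysis was possible because the control group has 1 array.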
